A study of Mus musculus with 6 samples.

Results

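Surface proteins are the handles by which muscle satellite cells (MuSCs), the stem cells of skeletal muscle, are sorted and staged. The 10 genes examined were *Cd34*, *Vcam1*, *Ncam1*, *Cxcr4*, *Calcr*, *Cd9*, *Cd82*, *Cd44*, *Sdc3* and *Sdc4*, taken by symbol from a table of 20654 genes. Of these, 9 were found in the table, 8 had enough counts to be tested, and *Calcr* was not analysed here. After 3 d of culture, *Ncam1* was higher in *Piezo1* cKO cells and was the only marker that passed the threshold in the main test, and *Cd34* showed the largest difference, towards a lower level. Both calls depended on the test and on single libraries.

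RNA was measured in 3 control libraries and 3 *Piezo1* cKO libraries of MuSCs on the C57BL/6 background. The *Piezo1* cKO genotype is *Piezo1*flox/flox; *Pax7*CreERT2/+, in which tamoxifen-induced Cre under the *Pax7* promoter deletes the mechanosensitive channel gene *Piezo1* only in cells that express *Pax7*; the labels call the control genotype wild type, whereas the study's text also gives *Pax7*CreERT2/+ for it, so that controls may carry the Cre allele too. Cells were sorted from uninjured forelimb muscle as VCAM1-positive and negative for CD31, CD45 and Sca1, and were then grown for 3 d on Matrigel in medium with serum, basic FGF and 4-hydroxytamoxifen, the last in both groups. The age and sex of the mice are not given in the sources used here, and in RNA from a whole culture fewer cells of a type and less RNA per cell cannot be told apart.

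MuSCs rest in quiescence beneath the basal lamina, and on injury or culture they enter the cell cycle as myoblasts, which later exit it and fuse. CD34, a sialomucin, and CALCR, the calcitonin receptor, are known as proteins of the quiescent cell, and VCAM1, an adhesion protein of the immunoglobulin superfamily, is the one by which these cells were sorted. CXCR4 is the receptor of the chemokine CXCL12, SDC3 and SDC4 are heparan sulphate proteoglycans that present growth factors to their receptors, and CD82 is a tetraspanin, all of them used to sort MuSCs of several stages. NCAM1, a homophilic adhesion molecule, CD9, a tetraspanin, and CD44, the hyaluronan receptor, are linked to activated and progressing cells. *Cd34* and *Vcam1* were taken as quiescence-linked and *Ncam1*, *Cd9* and *Cd44* as activation- or progression-linked.

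The 250 bases before the RefSeq start site (GRCm38.p6, 5′ to 3′ on the gene's strand) are shown for *Cd34* and *Sdc3*, the tested markers with the largest difference in each direction. Such windows were found for 8 of the 10 genes, all but *Ncam1* and *Vcam1*. The *Cd34* window is at chr1:194938571-194938820 and the *Sdc3* window at chr4:130792287-130792536, both on the plus strand. Capitals mark the GC box, GGGCGG or CCGCCC on the strand shown.
Cd34: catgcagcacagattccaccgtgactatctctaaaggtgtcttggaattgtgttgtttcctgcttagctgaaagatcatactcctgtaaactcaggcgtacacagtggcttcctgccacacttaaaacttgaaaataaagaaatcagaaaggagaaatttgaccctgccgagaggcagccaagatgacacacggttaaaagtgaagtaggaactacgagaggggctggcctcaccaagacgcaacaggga
Sdc3: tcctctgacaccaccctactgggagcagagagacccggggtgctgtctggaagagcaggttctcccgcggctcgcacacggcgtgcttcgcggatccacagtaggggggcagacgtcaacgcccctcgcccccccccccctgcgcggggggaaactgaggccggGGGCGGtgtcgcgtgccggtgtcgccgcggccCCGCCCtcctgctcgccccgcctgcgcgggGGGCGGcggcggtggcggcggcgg
The *Cd34* window held 46.4% G and C and no GC box, and the *Sdc3* window held 76.4% G and C and 3 GC boxes. Of 32851 promoter windows of this length, 32.7% held a GC box. The E-box CANNTG, the motif that MyoD and related factors bind, reads alike on both strands and was in 66.2% of the windows, but in neither of these. A match or its absence describes these letters only.

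Total counts in the order of the replicate numbers were 740936, 931168 and 891531 for the controls and 810096, 726378 and 769295 for *Piezo1* cKO. The counts are of unique molecular identifiers (UMIs), random tags that mark each cDNA molecule before PCR. Levels are given in CPM, counts scaled to a common library size by TMM, and because each molecule was primed once at its poly(A) tail they were not divided by gene length. A floor of 3 counts stood for between 3.35 and 4.31 CPM. *Piezo1*, the targeted gene, had 11, 5 and 6 counts in the controls and 7, 12 and 9 counts in *Piezo1* cKO. Its log2 fold change was 0.42 (adjusted p = 0.791, edgeR, fitted with the gene kept despite its low counts), so the count of the whole gene did not separate the groups. Such a count also includes transcripts that lack the deleted exons, so it does not check the deletion, and every direction given rests on the labels. Control 2 stood apart from the other libraries in having the highest *Cd34* level and the lowest levels of the differentiation genes *Myog* and *Mymk*, and *Piezo1* cKO 2 stood at the other end.

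The genes that define the labelled cell type were present. *Myod1*, the activation-stage myogenic factor, was at 1459 ± 102.5 CPM in the controls and 1309.7 ± 205 CPM in *Piezo1* cKO (SD, n = 3 each), and the muscle intermediate filament gene *Des* at 527 ± 97.2 and 564 ± 44.0 CPM. *Pax7*, the factor of the stem cell state, was low, at 21.9 ± 7.32 and 14.3 ± 6.98 CPM. Genes of the sorted-out cells had few counts. *Pecam1*, which encodes CD31, had at most 2 counts in any library, and the 5 endothelial genes measured summed to 7.19, 2.23 and 0 CPM among the controls and 3.802, 1.32 and 6.63 CPM in *Piezo1* cKO, with *Kdr* the most abundant and *Tie1* at 0 counts. *Ly6a*, which encodes Sca1, had 2, 2 and 3 counts among the controls and 5, 8 and 9 in *Piezo1* cKO. *Ptprc*, which encodes CD45, was not analysed here, and the 4 haematopoietic genes measured summed to 12.9, 29.0 and 17.7 CPM among the controls and 10.1, 19.8 and 13.3 CPM in *Piezo1* cKO, with *Cd68* the most abundant, followed by *Fcer1g* and *Lyz2*.

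In control cells the 9 markers spanned a wide range of levels. *Cd44* was the most abundant, at 376 ± 38.1 CPM (SD, n = 3), above *Cd9* at 282 ± 45.0 and *Sdc4* at 254 ± 53.2 CPM, which overlapped each other. *Ncam1* followed at 179 ± 17.7 CPM, below every library's *Sdc4*. *Vcam1* at 139.6 ± 14.6 and *Cd34* at 125 ± 59.8 CPM overlapped, as did *Sdc3* at 39.5 ± 3.51 and *Cd82* at 35.7 ± 4.79 CPM. *Cxcr4* was the least abundant, at 8.58 ± 1.48 CPM. In *Piezo1* cKO the order differed in 2 places. *Ncam1*, at 276 ± 53.6 CPM, stood second, within the ranges of *Cd44* and *Cd9*, and *Cd34*, at 42.1 ± 10.2 CPM, stood below *Sdc3*.

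**Figure D1:**
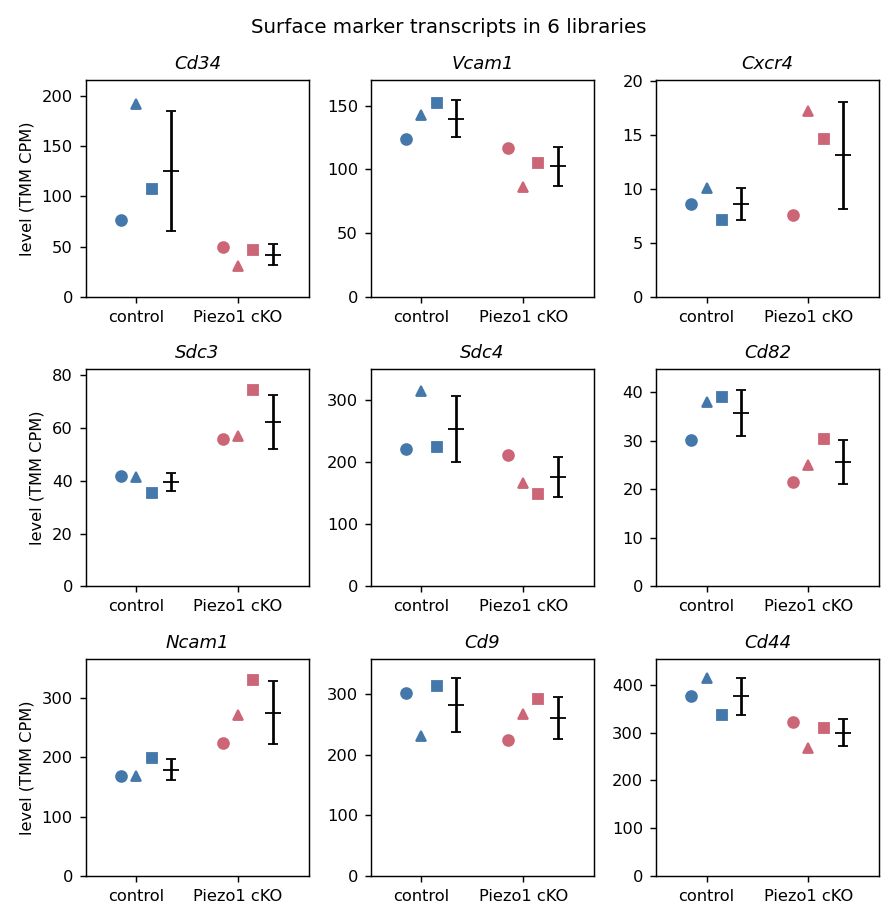
Level of each of the 9 markers (CPM after TMM scaling, y axis from 0) in the 3 control libraries (blue) and the 3 *Piezo1* cKO libraries (red); circle, triangle and square are replicates 1, 2 and 3, and the bar is the mean ± SD. *Cd34*, *Vcam1*, *Sdc4* and *Cd44* were lower and *Ncam1* and *Sdc3* higher in every *Piezo1* cKO library than in every control library, whereas *Cxcr4*, *Cd82* and *Cd9* overlapped.

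The comparison of *Piezo1* cKO with control asks how loss of the channel bears on these markers in cultured cells. By edgeR's quasi-likelihood test on 8551 genes, 1 of the 8 tested markers, *Ncam1*, had an adjusted p under 0.05, against 0.784% of all genes tested. It was higher in *Piezo1* cKO, as were 0.468% of all genes, and none of the 8 was called lower, as were 0.316%. In 6 of the 8 the groups did not overlap, 4 lower and 2 higher in *Piezo1* cKO, where 16.5% of all genes had groups without overlap, 8.31% lower and 8.2% higher. The same 6 had an unadjusted p under 0.05, as did 11.9% of all genes. The median log2 fold change of the 8 was -0.39, against 0.0021 for all genes tested. For each gene without overlap the two-sided exact permutation test gives p = 0.1, the smallest that 3 libraries against 3 allow.

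**Figure D2:**
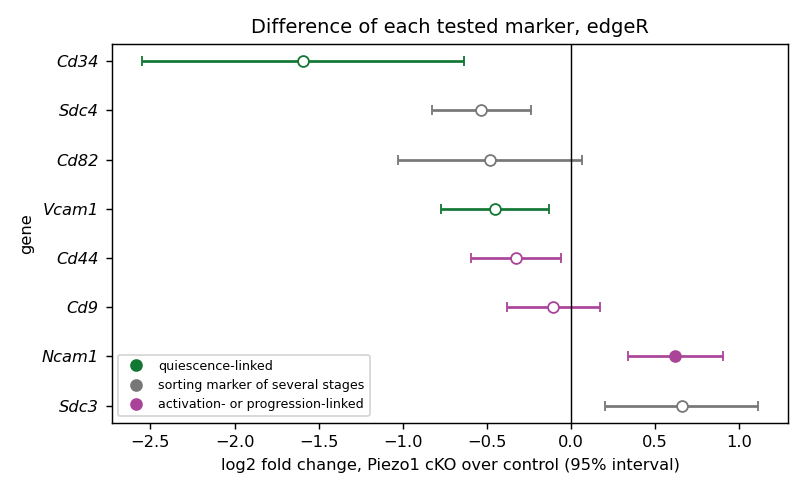
Log2 fold change of *Piezo1* cKO over control (x axis) with its 95% interval for the 8 tested markers, from edgeR; green, quiescence-linked; purple, activation- or progression-linked; grey, sorting markers of several stages; filled, adjusted p under 0.05. *Ncam1* (0.62) is the only filled point, and the interval of *Cd34* (-2.55 to -0.63) is the widest.

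*Cd34* is a plus-strand gene of chromosome 1 (GRCm38, 194938819 to 194961279). Its levels were 76.2, 192 and 107 CPM in control libraries 1 to 3, from 53, 172 and 91 counts, and 49.4, 30.4 and 46.4 CPM in *Piezo1* cKO libraries 1 to 3, from 39, 23 and 35 counts. Every *Piezo1* cKO library was below every control library, and control 2 stood far above the other controls, with a coefficient of variation of 47.8% in control against 24.3% in *Piezo1* cKO. The level fitted by edgeR was 3.01-fold lower in *Piezo1* cKO, a log2 fold change of -1.59 (standard error 0.40, 95% interval -2.55 to -0.63), the fourth lowest of the 8551 genes. It did not pass the threshold in edgeR (adjusted p = 0.181), whereas DESeq2 called it (adjusted p = 8.2e-04), where 0.674% of the genes with an adjusted p were called. Without control 2 the log2 fold change was -1.13 and edgeR called it (adjusted p = 2.3e-04), as it did without control 1 (-1.83, adjusted p = 9.0e-06). Over all the alternatives run, the adjusted p lay between 1.0e-11 and 0.480, and the log2 fold change kept its sign in each.

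*Cd34* is also a gene of fibro-adipogenic and endothelial cells, so their markers are given beside it. The 5 endothelial genes, at 7.19 CPM or less in sum, were far below *Cd34* in each library. Of 6 fibro-adipogenic genes measured, 2 had enough counts to be tested. Their sum was 197, 192 and 329 CPM in the controls and 275, 304 and 266 CPM in *Piezo1* cKO, most of it *Col3a1*, a collagen gene that MuSCs also express, at 196 ± 66.2 and 262 ± 20.8 CPM (log2 fold change 0.41, adjusted p = 0.265, edgeR). *Dcn*, which encodes the proteoglycan decorin, was at 25.9, 25.7 and 43.7 CPM in the controls and 10.1, 6.60 and 3.98 CPM in *Piezo1* cKO. By edgeR it fell by 2.17 in log2 units, with a standard error of 0.38 and an adjusted p of 3.9e-04, and it was called under each edgeR and limma alternative that tested it (adjusted p between 1.6e-05 and 0.0389). With 8, 5 and 3 counts in *Piezo1* cKO, it passed the filter on low counts only through the controls. *Ly6a*, also a gene of fibro-adipogenic cells and the third most abundant of the list, was higher in each *Piezo1* cKO library, at 2.88, 2.23 and 3.54 CPM in the controls and 6.34, 10.6 and 11.9 CPM in *Piezo1* cKO, and was not tested. Its control levels came from 2, 2 and 3 counts, at or under the floor of 3 counts. *Pi16* was at 0 counts in every library, and *Pdgfra* had 4, 3 and 8 counts in the controls and 1, 1 and 3 in *Piezo1* cKO. The part of such cells in the *Cd34* level was not tested.

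*Vcam1*, on chromosome 3 from 116109949 to 116129688, was at 124, 143 and 152 CPM in the controls and 117, 85.8 and 105 CPM in *Piezo1* cKO. The groups did not overlap, although *Piezo1* cKO 1 and control 1 stood close. The log2 fold change was -0.45 (standard error 0.16, 95% interval -0.77 to -0.13, adjusted p = 0.185, edgeR), and neither DESeq2 nor any other alternative called it. Since VCAM1 protein was the sorting handle in both groups, all cultures began from cells that carried it. Its integrin partners were unevenly represented. *Itgb1*, the beta-1 integrin chain, was at 675 ± 43.4 CPM in the controls and 592 ± 54.4 CPM in *Piezo1* cKO, whereas *Itga4*, the alpha-4 chain, had 2 counts in all libraries together.

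*Calcr* itself was not analysed here. Genes of its partners were sparse. *Ramp1*, *Ramp2* and *Ramp3*, which encode accessory proteins of calcitonin-family receptors, had at most 20 counts in any library and were not tested.

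The syndecans lay on opposite sides of 0. *Sdc4*, on chromosome 2 from 164424247 to 164443887, was at 221, 316 and 226 CPM in the controls and 212, 166 and 149.7 CPM in *Piezo1* cKO. All *Piezo1* cKO libraries were below all controls, by a narrow margin between *Piezo1* cKO 1 and control 1. Its log2 fold change of -0.53 (standard error 0.15, 95% interval -0.83 to -0.24) missed the threshold in edgeR (adjusted p = 0.0609). Leaving out control 2, its highest library, gave -0.34 (adjusted p = 0.430, edgeR). Leaving out control 1, control 3 or *Piezo1* cKO 1 brought the adjusted p under the threshold in edgeR, at 0.0369, 0.0273 and 0.00255, and over all alternatives it lay between 0.00255 and 0.436.

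*Sdc3*, on chromosome 4 from 130792537 to 130826319, was at 41.7, 41.3 and 35.4 CPM in the controls and 55.8, 56.8 and 74.2 CPM in *Piezo1* cKO. The groups did not overlap, with *Piezo1* cKO 3 the highest library. The log2 fold change was 0.66 (standard error 0.23, 95% interval 0.20 to 1.11, adjusted p = 0.167, edgeR). The other syndecans measured, *Sdc1* and *Sdc2*, both named after their values were seen, were at 151 ± 0.524 and 178 ± 11.4 CPM in the controls and 157 ± 7.72 and 195 ± 12.0 CPM in *Piezo1* cKO. Their log2 fold changes were 0.064 (95% interval -0.23 to 0.36) and 0.13 (95% interval -0.15 to 0.41). The difference between syndecans was not tested.

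*Cxcr4*, on chromosome 1 from 128588199 to 128592293, had 6, 9 and 6 counts in the controls and 6, 13 and 11 counts in *Piezo1* cKO, too few for the filter. The pooled counts of 21 and 30 gave a ratio of 1.51 with an exact Poisson 95% interval from 0.839 to 2.78. This interval covers counting error only and includes 1, so no difference was resolved at this depth. Its ligand gene *Cxcl12* was far more abundant, at 257 ± 39.6 CPM in the controls and 287 ± 30.8 CPM in *Piezo1* cKO, and *Ackr3*, which encodes the other CXCL12 receptor, was at 161 ± 9.89 and 168 ± 28.7 CPM. The log2 fold changes of *Cxcl12* and *Ackr3* were 0.15 (adjusted p = 0.717, edgeR) and 0.066 (adjusted p = 0.919, edgeR).

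*Cd82*, on chromosome 2 from 93419111 to 93463140, had between 17 and 34 counts per library. It was at 30.2, 37.9 and 39.0 CPM in the controls and 21.5, 25.1 and 30.5 CPM in *Piezo1* cKO, where *Piezo1* cKO 3 reached just above control 1. Its log2 fold change of -0.48 (standard error 0.28, 95% interval -1.03 to 0.063) was not called (adjusted p = 0.490, edgeR).

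*Ncam1*, on chromosome 9 from 49502136 to 49798925, was at 168, 169.5 and 199.6 CPM in the controls and at 224, 272 and 331 CPM in *Piezo1* cKO. Each *Piezo1* cKO library was above each control, and *Piezo1* cKO 3 was the highest. *Ncam1* rose 1.54-fold in the same fit, a log2 fold change of 0.62 (standard error 0.14, 95% interval 0.34 to 0.90, adjusted p = 0.0110, edgeR). The adjusted p was 0.0911 in DESeq2. In edgeR it was over the threshold with a replicate block (0.0556), and also without control 1 (0.0529), *Piezo1* cKO 2 (0.164) or *Piezo1* cKO 3 (0.321). Over all alternatives the adjusted p lay between 2.8e-04 and 0.321, with a log2 fold change of 0.46 to 0.75.

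NCAM1 carries polysialic acid, which ST8SIA2 adds, and signals through the kinase FYN. *St8sia2* was at 152 ± 10.8 CPM in the controls and 169.9 ± 4.93 CPM in *Piezo1* cKO (log2 fold change 0.16, 95% interval -0.13 to 0.46), and *Fyn* at 55.3 ± 5.57 and 90.2 ± 17.8 CPM (log2 fold change 0.69, adjusted p = 0.0637, edgeR), both named after their values were seen. The 5 tested genes whose levels over the 6 libraries were most like those of *Ncam1* were *Lrrc42*, *Sphk2*, *Ghr*, *Wdr81* and *Ncoa6*, with Pearson correlations of log2 CPM between 0.979 and 0.996. They were picked from 8551 genes over 6 libraries that form 2 groups, and none of the 5 was called by edgeR.

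*Cd9*, on chromosome 6 from 125460266 to 125494791, was at 302, 231 and 314 CPM in the controls and 224, 268 and 293 CPM in *Piezo1* cKO, and the groups overlapped. Its log2 fold change of -0.11 had a 95% interval from -0.38 to 0.17 (adjusted p = 0.838, edgeR). An antisense gene within *Cd9*, *Gm28809*, held 36 counts in all libraries together, and the strand setting of the counting is not given in the sources used here. *Cd44*, on chromosome 2 from 102811141 to 102901665, was at 377, 414 and 338 CPM in the controls and 322, 268 and 310.1 CPM in *Piezo1* cKO. The groups did not overlap, although control 3 and *Piezo1* cKO 1 stood close. Its log2 fold change was -0.33 (standard error 0.13, 95% interval -0.59 to -0.059, adjusted p = 0.277, edgeR). Among its partners, *Spp1*, which encodes the CD44 ligand osteopontin, was at 2959 ± 788 CPM in the controls and 2550.2 ± 269.9 CPM in *Piezo1* cKO, and *Msn*, which encodes the linker moesin, at 817 ± 46.6 and 754 ± 105 CPM, both overlapping.

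The quiescence-linked and the activation-linked markers were then set against each other. The mean log2 fold change was -1.02 for *Cd34* and *Vcam1* and 0.062 for *Ncam1*, *Cd9* and *Cd44*, a difference of -1.08. Within libraries, the mean log2 level of the quiescence-linked markers minus that of the activation-linked ones was -1.44, -0.61 and -1.10 in control and -1.70, -2.33 and -2.11 in *Piezo1* cKO. The groups did not overlap, and control 1 and *Piezo1* cKO 1 stood closest. The difference lay between -1.26 and -0.82 with single libraries left out. This contrast rested largely on *Cd34*. With *Vcam1* alone as the quiescence-linked marker, a choice made after the data were seen, the difference was -0.51. With *Cxcr4* added to *Cd34* and *Vcam1* it was -0.55. The *Cxcr4* value used, 0.59 (95% interval -0.30 to 1.49, edgeR), came from a fit that kept the gene despite its low counts. The activation-linked markers lay on both sides of 0, since *Ncam1* was higher, *Cd44* was lower in each *Piezo1* cKO library, and *Cd9* overlapped.

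**Figure D3:**
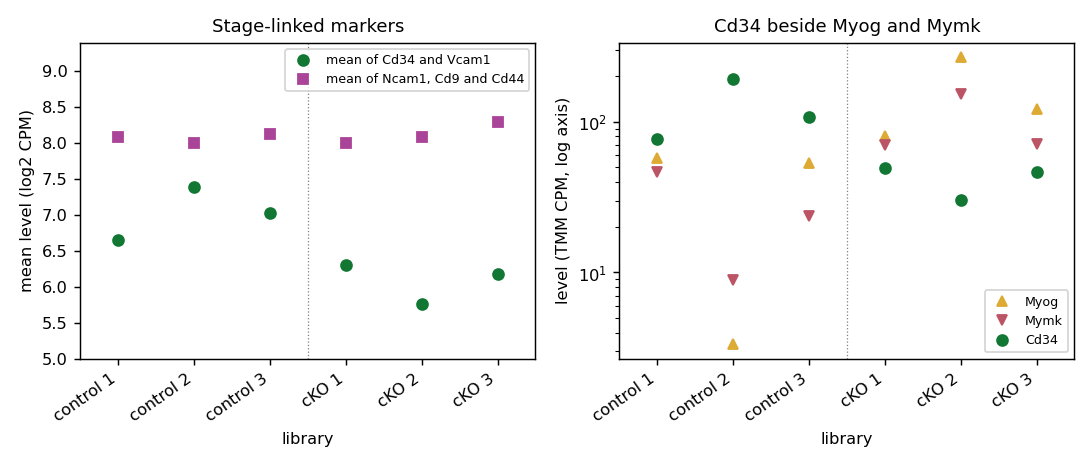
Left, mean log2 CPM (y axis) of the quiescence-linked markers (green circles) and of the activation-linked markers (purple squares) in each library (x axis); right, CPM on a log axis of *Cd34* (green circles), *Myog* (yellow upward triangles) and *Mymk* (red downward triangles). The quiescence-linked mean was 6.64 or more in control and 6.30 or less in *Piezo1* cKO, and *Cd34* was highest in control 2, where *Myog* and *Mymk* were lowest, and lowest in *Piezo1* cKO 2, where they were highest.

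The *Cd34* level was set beside differentiation genes library by library. *Myog*, the commitment factor, was at 57.5, 3.35 and 53.1 CPM in the controls and 79.9, 268 and 122 CPM in *Piezo1* cKO, and *Mymk*, which encodes the fusion protein myomaker and is named after its values were seen, at 46.0, 8.92 and 23.6 and at 69.7, 153 and 71.6 CPM. Ordered by *Cd34*, the libraries fell in the reverse of their order by *Myog* and by *Mymk* at all 6 places. Of these, the order between the groups is fixed because the groups did not overlap. Some places within the groups rested on near ties. *Mymk* had 55 and 54 counts in *Piezo1* cKO 1 and 3, and *Myog* had 40 and 45 counts in controls 1 and 3. In control 2 *Myog* had 3 counts, which is the floor. The order by *Acta1* or *Mylpf*, which encode a skeletal actin and a myosin light chain, was not the reverse of that by *Cd34*, since control 3 was the highest control for both. Neither *Myog* nor *Mymk* was called (adjusted p = 0.468 and 0.370, edgeR). Of 11 differentiation genes measured, 8 were tested. None of them was called by edgeR, against 0.784% of all genes tested, and 3 had an unadjusted p under 0.05, against 11.9%. DESeq2 called 1, *Acta1*, where it called 0.674% of the genes with an adjusted p. *Acta1* was at 74.7 ± 17.1 CPM in the controls and 302 ± 151 CPM in *Piezo1* cKO, without overlap (log2 fold change 2.01, adjusted p = 0.241, edgeR). Nothing is read from how many of the list lay above 0 or had an unadjusted p under 0.05, because of the filter. *Myog*, *Mymk*, *Mylpf*, *Tnni1* and *Actc1* passed the filter on low counts only through the *Piezo1* cKO libraries. *Actc1*, the cardiac actin gene, had the fewest counts of these, 6, 0 and 0 among the controls and 11, 96 and 21 in *Piezo1* cKO. *Mylpf*, *Tnni1* and *Actc1* were named after their values were seen. The most abundant, the cell cycle inhibitor gene *Cdkn1a*, was at 767 ± 97.3 CPM in the controls and 699 ± 94.3 CPM in *Piezo1* cKO, and *Tnnt2* at 234 ± 16.4 and 261 ± 37.0 CPM. The part of differentiation in the marker levels was not tested. Leaving out control 2 or *Piezo1* cKO 2, the libraries at the ends of this order, gave log2 fold changes of -0.43 and -0.34 for *Vcam1*, -0.34 and -0.50 for *Sdc4*, 0.70 and 0.72 for *Sdc3*, and -0.24 and -0.25 for *Cd44*, none of them called by edgeR with or without these libraries. Without control 2, edgeR called *Cd34* and also *Ncam1* (0.58, adjusted p = 0.0162), and without *Piezo1* cKO 2 it called neither.

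Of 15 other genes of the quiescent cell measured, 8 were tested. None was called by edgeR or DESeq2, and 1 had an unadjusted p under 0.05, the Notch target *Hey1* (1.55, adjusted p = 0.0817, edgeR), named after its values were seen. *Hey1* had 8, 6 and 2 counts among the controls and 11, 23 and 11 in *Piezo1* cKO, so it passed the filter on low counts only through *Piezo1* cKO. *Pax7*, which passed only through the controls, had a log2 fold change of -0.64 (95% interval -1.35 to 0.076, adjusted p = 0.481, edgeR), and *Gpx3*, *Hes1* and *Foxo1*, the most abundant of the list, lay at 0.19, 0.24 and 0.17. Of the 8 tested, 6 lay above 0 and 2 below, with a median of 0.21, whereas *Cd34* and *Vcam1* lay below 0. The list was not tested as a set, and *Hey1* and *Pax7* each passed the filter through 1 group only. All 12 proliferation genes were tested and had log2 fold changes below 0, between -0.44 and -0.096. Their median was -0.30, against 0.0021 for all genes tested. None of the 12 was called by edgeR or DESeq2, where edgeR called 0.784% of all genes tested. An unadjusted p under 0.05 was found for 6 of the 12, against 11.9% of all genes. *Ccnd1* was at 574 ± 88.4 CPM in the controls and 460 ± 67.9 CPM in *Piezo1* cKO, *Ccnb1* at 419 ± 0.995 and 373 ± 81.0 CPM, *Birc5* at 396 ± 22.5 and 348 ± 47.6 CPM and *Mki67* at 71.3 ± 16.7 and 55.6 ± 8.77 CPM.

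Beyond the 10 markers, 29 other surface proteins of MuSCs were measured and 22 of them tested, with 13 log2 fold changes above 0 and 9 below and a median of 0.063. None was called by edgeR or DESeq2, where edgeR called 0.784% of all genes tested. An unadjusted p under 0.05 was found for 4 of these surface genes, against 11.9% of all genes. The tetraspanin gene *Cd63* was the most abundant, at 2721 ± 418 CPM in the controls and 2210 ± 305 CPM in *Piezo1* cKO, and *Cd81*, another tetraspanin gene, was at 602 ± 117 and 639 ± 53.3 CPM. *Itga6*, the alpha-6 integrin chain (1.02, adjusted p = 0.0758, edgeR), and *Cdh15*, which encodes M-cadherin (0.53, adjusted p = 0.118, edgeR), were higher in each *Piezo1* cKO library, and *Slc3a2*, which encodes the heavy chain of the activation marker CD98 (-0.43, adjusted p = 0.117, edgeR), was lower in each, all 3 named after their values were seen. Of 39 ligands and partners of the markers, 22 were tested, none called by edgeR or DESeq2 and 3 with an unadjusted p under 0.05. The 8 myogenic identity genes, led in abundance by *Chrna1*, *Myod1* and *Des*, were all tested, none called by either tool and 2 with an unadjusted p under 0.05. DESeq2 called 0.674% of the genes with an adjusted p. The lists share genes, among them *Itga6* and *Cdh15*, so these tallies are not independent. Of 7 mural and Schwann cell genes only *Cspg4*, the most abundant before *Pdgfrb* and *Rgs5*, could be tested (0.76, adjusted p = 0.143, edgeR). Their sum was 50.3, 36.8 and 46.1 CPM among the controls and 58.3, 58.1 and 84.8 CPM in *Piezo1* cKO.

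**Figure D4:**
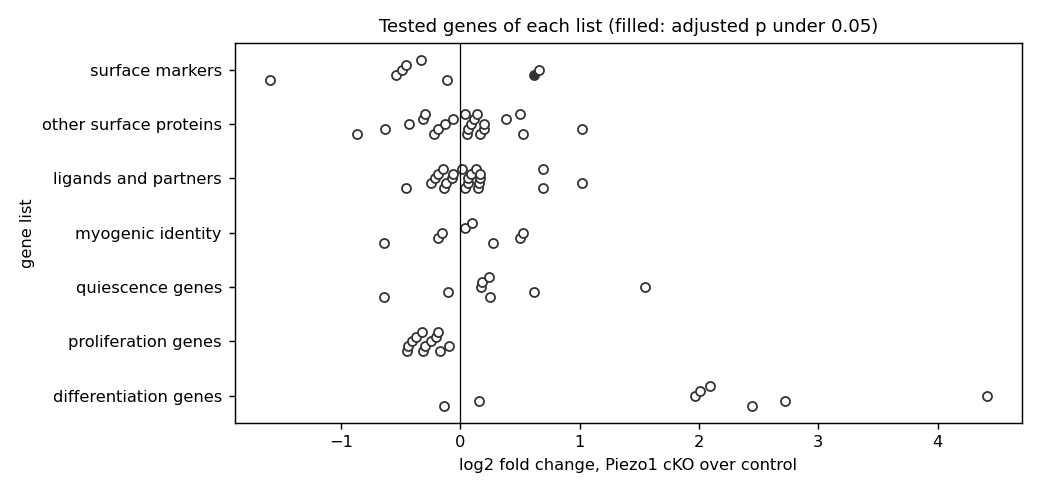
Log2 fold change of *Piezo1* cKO over control (x axis) for the tested genes of 7 lists (y axis, 1 point per gene); filled points have an adjusted p under 0.05 in edgeR. The surface markers hold the only filled point, *Ncam1*, the proliferation genes lie between -0.44 and -0.096, and the differentiation gene *Actc1*, with few counts in the controls, lies farthest right.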

How the data were processed

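RNA-seq was performed on cultured MuSCs from 3 control and 3 *Piezo1* cKO samples. For these samples the sources used here do not say whether each came from its own mouse, so p-values measure only the spread between samples, which may be technical. The authors primed the RNA with barcoded oligo-dT carrying UMIs, mapped the reads to GRCm38 with STAR 2.7.9a, assigned them with featureCounts 2.0.1 and counted UMIs with UMI-tools 1.1.1 (tools per the submitters' processing notes). The deposited values are counts per gene, not normalised. The settings for strand and for reads that map to several places are not given in the sources used here.

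Counts were analysed in R 4.3.3 with edgeR 4.0.16 (TMM, robust quasi-likelihood test, Benjamini-Hochberg adjustment over all genes tested, called under 0.05) on 8551 genes kept by its filter with a minimum count of 10. Log2 levels used a prior count of 2. Alternatives used DESeq2 1.42.0 and limma 3.58.1, other scalings and filters, a replicate block, thinning and single libraries left out. Gene positions are from GENCODE M21 (GRCm38). The markers and gene lists were chosen with earlier results of these data known, and no list was tested. Besides the markers, named genes were *Piezo1*, *Pax7*, *Myod1*, *Myog*, *Mki67*, the genes of the sorting gate, called genes, the 3 most abundant of each list and the 5 most like *Ncam1*; others were named after their values were seen. Calculations were tested on simulated data. Intervals and floors cover counting error only where so named. No pair of replicates differed by as little as sampling noise (chi-square per degree of freedom of 1.64 or more).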

Additional observations from a re-analysis of the deposited data

How the results depend on the processing

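No log2 fold change of the 9 markers was reversed. Under the alternatives, 109 of their values kept both direction and side of the threshold, 9 newly passed it and 5 no longer did. The numbers of genes called differed most. Against 67 genes (40 higher, 27 lower), edgeR called 129 with no filter (82 and 47) and 124 at an adjusted p under 0.1 (76 and 48), cyclic loess 32 (17 and 15) and DESeq2 27 (12 and 15), the replicate block 46, of which 26 were higher, and single libraries left out between 6, without *Piezo1* cKO 2, and 174, without *Piezo1* cKO 1 (higher 4 to 101, lower 2 to 73). Scaled by total counts only, 73.1% of the called genes were higher. Of the 67 genes, 36 were also called with the block and 18 by DESeq2. The cause was not tested.

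*Ncam1* missed the threshold in DESeq2 (0.61) and under the replicate block in edgeR (0.62, with an adjusted p of 0.0556), and ranged from 0.46 to 0.75 with single libraries left out. *Cd34* passed in DESeq2 (-1.60) and with no filter (-1.60), and ranged from -1.83 to -1.13 with single libraries left out. *Sdc4* passed with no filter (-0.54, adjusted p = 0.0327) and with at least 10 counts in every library (-0.52, adjusted p = 0.0334, edgeR), and ranged from -0.70 to -0.34 with single libraries left out. The block changed no other marker's call. DESeq2 gave no adjusted p for *Sdc3*, *Cd82*, *Cxcr4* and *Dcn*. The quiescence-linked minus activation-linked difference of -1.08 moved to -0.55 with *Cxcr4* included despite its low counts. Without *Cd34*, a choice made after the data were seen, it moved to -0.51.

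Same-numbered libraries deviated from their group means with correlations of -0.143, -0.202 and 0.0117, and no library correlated best with its own number, so the numbers were not taken to pair them. At 3 counts per library, levels under 4.31 CPM could not be told from the floor.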

Other observations

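The 3 genes of the accessory proteins of calcitonin-family receptors had too few counts to be tested and are given in the order of the replicate numbers, described after their values were seen. *Ramp1* had 2, 5 and 5 counts in the controls and 10, 8 and 9 in *Piezo1* cKO, where the groups did not overlap. *Ramp2* had 6, 20 and 16 counts in the controls and 10, 5 and 4 in *Piezo1* cKO, and *Ramp3* had 3, 6 and 0 counts in the controls and 1, 1 and 3 in *Piezo1* cKO, and in both the groups overlapped. Of all genes tested, 16.5% had groups without overlap. The 3 genes thus did not lie in 1 direction, and no difference in them was tested.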
